A study of Homo sapiens with 6 samples.

Results

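The caspase family was examined in MDA-MB-231 cells after knockdown of miR-138. The set holds 8 genes, CASP1, CASP2, CASP4, CASP6, CASP8, CASP9, CASP10 and CFLAR. Its members were all bead-array probes annotated to 1 of these genes, whatever their signal, 21 of the 47322 probes and 8 of the 20046 named genes. MDA-MB-231 is a human breast cancer line of the basal, triple-negative type. Its cells were transduced with lentivirus that expressed either a scrambled control or antagomiR-138, an RNA that pairs with miR-138 and which the labels call antimiR-138. AntagomiR-138 came from a miRZip vector, in which an H1 promoter transcribes the inhibitor constitutively and copGFP and a puromycin marker are carried along. All 6 samples, 3 scrambled control and 3 antagomiR-138, were harvested 72 h after transduction, on day 3, so both groups shared the line, a lentivirus and the time. The results hold for 1 cell line, and nothing in the labels or methods ties the 3 replicates to separate cultures. The p-values thus rest on the spread among these arrays alone, part or all of which may be technical.

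Caspases are cysteine proteases that cut proteins after aspartate residues and lie dormant in cells as precursors. Initiator caspases (CASP8 and CASP10 at death receptors, CASP9 at the apoptosome of cytochrome c and APAF1, CASP2 at the PIDDosome) are brought together on adaptor platforms and activate executioner caspases such as CASP6, which cleave structural proteins. The inflammatory caspases CASP1 and CASP4 cut gasdermin D and, for CASP1, the interleukin-1 precursor, and CFLAR (c-FLIP) is a catalytically inactive relative of CASP8 that binds the same platform. Transcript levels, which the arrays measured, do not show whether a caspase is active.

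The RNA that antagomiR-138 was built to pair with is shown here because it defines the comparison, with its seed, bases 2 to 8 from the 5′ end, in capitals.
hsa-miR-138-5p: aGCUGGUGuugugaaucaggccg
In RefSeq (GRCh38.p14) this sequence lies in the genes MIR138-1 (chr3:44114234-44114256, plus strand) and MIR138-2 (chr16:56858527-56858549, plus strand). The array probes of these precursor genes had no detection p under 0.05 on any array (lowest 0.395), and the arrays gave no check of the inhibitor. The paper reports a qRT-PCR check of the knockdown in triple-negative lines, MDA-MB-231 among them.

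Each array gave, for every probe, a background-subtracted intensity and a detection p-value, the chance of so bright a value among the negative control probes of that array. Between 19263 and 20430 probes per array had a detection p under 0.05, which is called detected here, and the median intensity was 14.2 to 16.7. Of the markers of other cells, ESR1, PGR, FOXA1 and TFF1 (luminal epithelium) and PTPRC and CD3E (leukocytes) were detected on no array and were named after their values were seen. All 8 mesenchymal markers looked for were tested, with 3 higher and 4 lower, beside 30.9% higher and 29.1% lower over all tested genes. Their summed normalized signal was 117080 to 121595 in scrambled control and 100050 to 101325 in antagomiR-138 arrays. Of 7 fibroblast markers, 5 were tested, of which 3 were higher and 2 lower with antagomiR-138, and their summed signal was 530.9 to 558.0 in scrambled control and 926.4 to 1042 in antagomiR-138 arrays. The sum used 1 probe per gene. COL1A2 rose from a log2 mean of 7.61 to 9.49 on the probe used, while its other probe had a log2 fold change of −0.08 (limma, adjusted p = 0.483). PDGFRB fell from 7.85 to 6.15. COL1A1 was detected on no control array, LUM on 1 of 3 and DCN on 1 of 3 antagomiR-138 arrays, so these 3 entered through the group where they are brighter. Of them, COL1A1 was also named after its value was seen. Of 10 luminal markers, 5 were tested, with 2 higher and 3 lower and a summed signal of 2614 to 2815 against 1751 to 1932. ERBB2 fell from a log2 mean of 10.17 to 9.02, and AGR2 rose from 6.57 to 7.21. Of 8 leukocyte markers, 4 were tested, with 1 higher and 1 lower and overlapping sums (6087 to 6716 against 5508 to 6103). CD14 rose from a log2 mean of 9.59 to 11.07, and its other probe also passed, with a log2 fold change of 1.82. CD68 fell from 12.43 to 11.78, while its other probes had 0.04 and −0.07 and did not pass. The part of these markers in the caspase values was not tested.

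Of the 21 caspase family probes, 9 were detected on at least 3 of the 6 arrays and entered the comparison, and 5 of the 8 genes, CASP2, CASP4, CASP6, CASP9 and CFLAR, could be tested. The other 12 probes stayed near background, including every probe of CASP1, CASP8 and CASP10. Normalized levels are on a log2 scale, after background correction, quantile normalization and an added offset of 16, and a gene is its brightest entering probe. Upon miR-138 knockdown, CASP6, CASP2 and CFLAR were lower and CASP9 was higher (limma, Benjamini-Hochberg adjusted p under 0.05), whereas CASP4 did not pass. These 4 of 5 calls stand beside a background in which 60.1% of the 11426 tested genes passed (29.1% were lower and 30.9% higher). With a minimum of 1.5-fold added, CASP6 and CASP9 remained, against 25.1% of all tested genes, and CASP6 was then the only member called lower, against 13.8%. The groups of 3 arrays did not overlap in any of the 5 genes, as in 66.6% of all tested genes. The median log2 fold change was −0.24 for the 5 genes and 0.02 for all tested genes. In bulk RNA, a lower level in every cell and fewer cells with the transcript cannot be told apart.

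**Figure D1:**
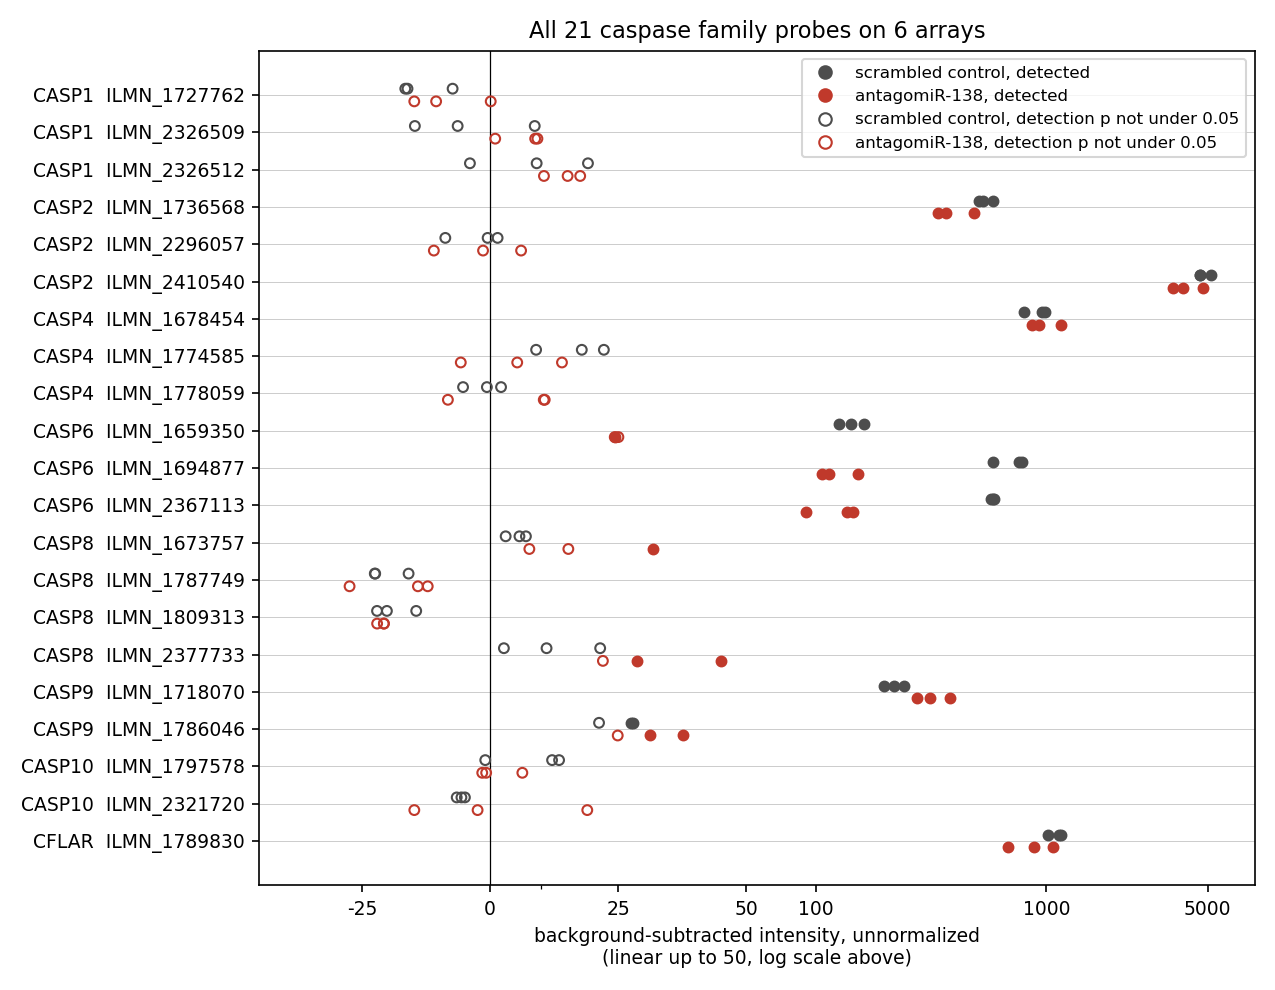
Background-subtracted, unnormalized intensity of all 21 caspase family probes (x axis, linear up to 50 and logarithmic above), with 1 point for each of 3 scrambled control (grey) and 3 antagomiR-138 (red) arrays and open points where the detection p was not under 0.05. The 3 CASP6 probes separate the groups most widely, and the probes of CASP1, CASP8 and CASP10 lie around 0 or below 50. Of the CASP6 probes, ILMN_1659350 was detected on 1 of 3 antagomiR-138 arrays and entered the comparison through the control arrays.

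CASP6, the only executioner caspase among the 8 genes, had the largest change of the family. Its brightest probe, ILMN_1694877, read 9.23, 9.65 and 9.51 in the scrambled control arrays and 7.22, 7.01 and 7.25 in the antagomiR-138 arrays on the normalized log2 scale. The highest antagomiR-138 array lay well below the lowest control array. The mean fell from 9.46 ± 0.21 to 7.16 ± 0.13 (SD, n = 3 each), a log2 fold change of −2.30 (standard error 0.120, 95% interval −2.59 to −2.02), or 4.94-fold lower (limma, adjusted p = 1.19e-05). In rank of absolute change CASP6 stood 61st of the 11426 tested genes, among the 0.534% that changed at least as much, and was 37th in the order of falls. The unnormalized intensities of the same probe were 585.5, 780.6 and 757.2 against 153.0, 106.1 and 113.9, so the separation was present before normalization.

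CASP6 was measured by 3 probes, of which 2 were detected on all 6 arrays. The probe ILMN_2367113, annotated to the transcript NM_032992, read 9.25, 9.22 and 9.13 in scrambled control and 7.08, 7.41 and 6.95 in antagomiR-138 arrays. The probe ILMN_1659350, annotated like the brightest one to NM_001226, read 7.14, 7.30 and 7.38 against 5.33, 5.42 and 5.47. Neither probe had overlapping groups. Fitted over all 20051 entering probes, of which 49.9% passed (26.0% higher and 23.9% lower), the log2 fold changes were −2.06 (standard error 0.123, limma, adjusted p = 4.08e-05) and −1.87 (0.0841, 1.84e-05). ILMN_1659350 is the dimmest, with antagomiR-138 intensities of 24.3 to 25.03 that were detected on 1 of 3 arrays, so it entered through the control arrays, where it is bright. Its value is given as a description and is no support for the fall of the other 2 probes. It ranged from −2.44 to −1.24 over the other settings. When each probe was tested against the other entering probes of its gene, no CASP6 probe passed, where 15.1% of 6796 probes so tested did. The adjusted p was 0.143 for ILMN_1694877, 0.182 for ILMN_1659350 and 0.940 for ILMN_2367113, and each of these tests involved the dim probe. The difference of the dim probe ILMN_1659350 depended on the scale: it was 0.31 here, 0.64 with an offset of 50 in place of 16 (adjusted p = 0.000494) and −0.13 in the authors' normalized table (adjusted p = 0.731). ILMN_1694877 also passed with the offset of 50 (adjusted p = 0.00449) and not in that table (0.760). A filter of detection p under 0.01 on all 6 arrays left the dim probe out. The difference of ILMN_1694877 from ILMN_2367113 was then −0.25 and did not pass the same test (adjusted p = 0.452). The genes whose 6 centred log2 values lay closest to those of CASP6 were ELFN2 (log2 fold change −2.39, root mean square distance 0.0769), the metallothionein MT1F (−2.28, 0.0825) and the aldo-keto reductase AKR1C3 (−2.33, 0.0847), as a description over 6 arrays.

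**Figure D2:**
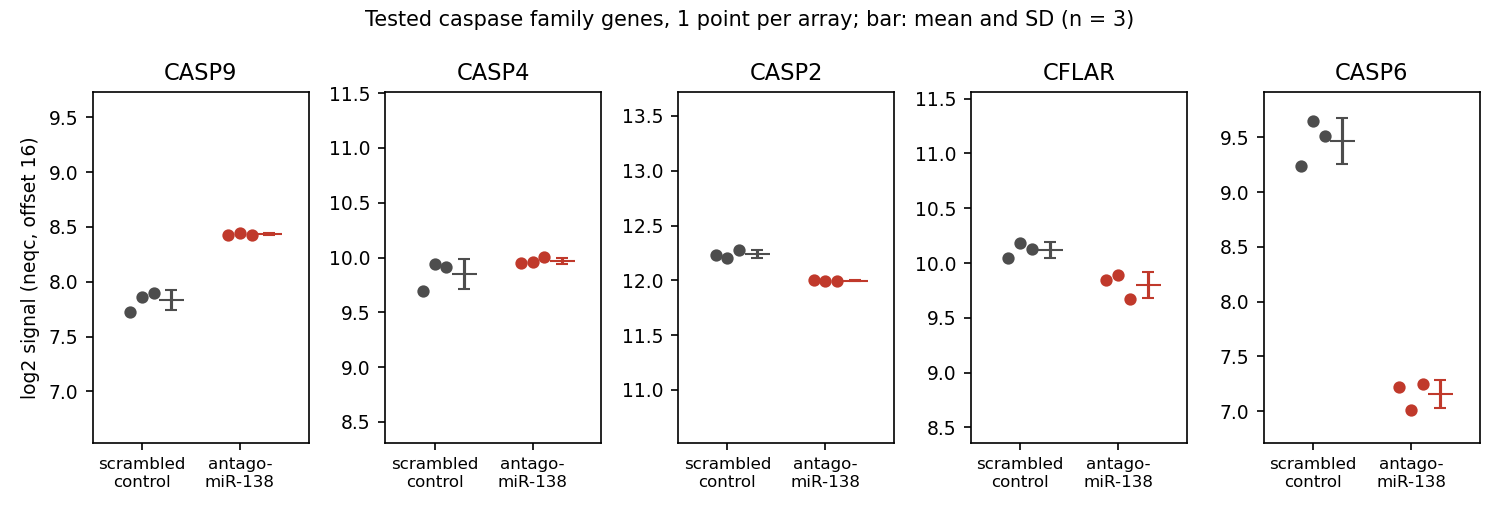
Normalized log2 signal (y axis, each panel spanning the same height) of the 5 tested caspase family genes in 3 scrambled control (grey) and 3 antagomiR-138 (red) arrays, with the mean and SD beside the points. CASP6 falls from 9.46 to 7.16, CASP9 rises from 7.83 to 8.43, and the changes of CASP2, CFLAR and CASP4 are small beside these.

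Among the initiator caspases, CASP9, which the apoptosome activates after cytochrome c leaves the mitochondria, was called higher on 1 of its 2 probes. Its brightest probe, ILMN_1718070, read 7.73, 7.86 and 7.90 in the scrambled control arrays and 8.43, 8.44 and 8.43 in the antagomiR-138 arrays. The antagomiR-138 arrays were nearly equal and all above the controls, as were their unnormalized intensities (274.6 to 381.1 against 197.1 to 240.1). The log2 fold change was 0.60 (standard error 0.0638, 95% interval 0.45 to 0.75), or 1.52-fold higher (limma, adjusted p = 0.000219). It was the only member called higher, where 30.9% of all tested genes were. The other CASP9 probe, ILMN_1786046, was dim and detected on 2 of 3 arrays in each group. It read 5.48, 5.47 and 5.26 against 5.34, 5.80 and 5.69, with overlapping groups. Its log2 fold change was 0.21 (standard error 0.132, 95% interval −0.11 to 0.52, limma, adjusted p = 0.241). The 2 probes, annotated to the transcripts NM_032996 (the brightest probe) and NM_001229, did not pass the test of their difference (adjusted p = 0.118). With an offset of 50 they did (adjusted p = 0.0109). Which part of these transcripts each probe matches was not examined, so the values do not tell which CASP9 transcript changed.

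CASP2, the initiator that the PIDDosome activates and the one most conserved among animals, was slightly lower. The brightest probe, ILMN_2410540, read 12.24, 12.20 and 12.28 in the scrambled control arrays and between 11.99 and 12.01 in the antagomiR-138 arrays. The normalized groups did not overlap, but the unnormalized intensities did, at 4618 to 5168 against 3525 to 4780. The log2 fold change was −0.24 (standard error 0.0521), or 1.18-fold lower (limma, adjusted p = 0.00613). When arrays were scaled to a common median instead of quantile-normalized, the value was −0.25 and the call was lost (adjusted p = 0.122). A further CASP2 probe, ILMN_1736568, read 9.04, 9.09 and 9.16 against 8.77, 8.66 and 8.71. In the fit over all probes it had −0.38 and passed (standard error 0.0661, limma, adjusted p = 0.00307), and its groups were also separate before normalization. The difference between the 2 probes did not pass (adjusted p = 0.363), and the remaining CASP2 probe was not detected on any array.

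CASP8 and CASP10, the initiators recruited by death receptors, were at the limit of detection. Of 4 CASP8 probes, 2 were detected on no array. ILMN_2377733 had intensities of 21.5, 11.0 and 2.7 in scrambled control and 45.1, 22.01 and 28.6 in antagomiR-138 arrays, and ILMN_1673757 had 3.0, 7.0 and 5.7 against 31.9, 7.7 and 15.3. The groups were apart by little on either probe (22.01 against 21.5, and 7.7 against 7.0), and the share of probes so separated was not computed. Each lay near background: ILMN_2377733 was detected on 2 antagomiR-138 arrays and ILMN_1673757 on 1, both on no control array, too few to enter. With no detection filter, where 32.5% of 20046 genes passed, CASP8 reached a log2 fold change of 0.53 (SE 0.158, limma, adjusted p = 0.0394). In the same setting CASP10 had −0.14 (0.101, adjusted p = 0.364). Both CASP10 probes had intensities between −14.8 and 19.0 and a lowest detection p of 0.104, so a change of CASP10 was not detectable here.

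CFLAR was lower by a small step. Its 1 probe, ILMN_1789830, read 10.04, 10.19 and 10.13 in the scrambled control arrays and 9.84, 9.89 and 9.67 in the antagomiR-138 arrays. The normalized groups were separate, while the unnormalized intensities overlapped (1014 to 1158 against 677.9 to 1065). The log2 fold change was −0.32 (standard error 0.0785, 95% interval −0.51 to −0.13), or 1.25-fold lower (limma, adjusted p = 0.0107). In the fit over all probes the call (adjusted p = 0.0172) was lost with median scaling, without scrambled control replicate 2 or without replicate 3 (adjusted p = 0.0661, 0.0531 and 0.0503). CFLAR, CASP10 and CASP8 are next to each other in the RefSeq gene order of GRCh38.p14, and only CFLAR of these 3 was bright enough to test. With 1 probe, the long and short c-FLIP transcripts could not be compared.

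The inflammatory members gave no call. CASP4, which binds bacterial lipopolysaccharide inside the cell, was well detected by ILMN_1678454, which read 9.69, 9.94 and 9.91 in scrambled control and 9.95, 9.96 and 10.00 in antagomiR-138 arrays. The normalized groups were separated by less than the spread among the controls, and the unnormalized intensities overlapped. The log2 fold change was 0.12 (standard error 0.0784, 95% interval −0.06 to 0.31, limma, adjusted p = 0.213), so the data allow anything from a slight fall to a rise of 0.31. The other 2 CASP4 probes were detected on no array. CASP1, the interleukin-1 converting enzyme, was detected on no array by any of its 3 probes (intensities −16.5 to 19.1, lowest detection p 0.0805). Without the detection filter its log2 fold change was 0.14 (standard error 0.130, limma, adjusted p = 0.508). CASP5 and CASP14, further caspases with 1 named probe each, were also detected on no array.

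**Figure D3:**
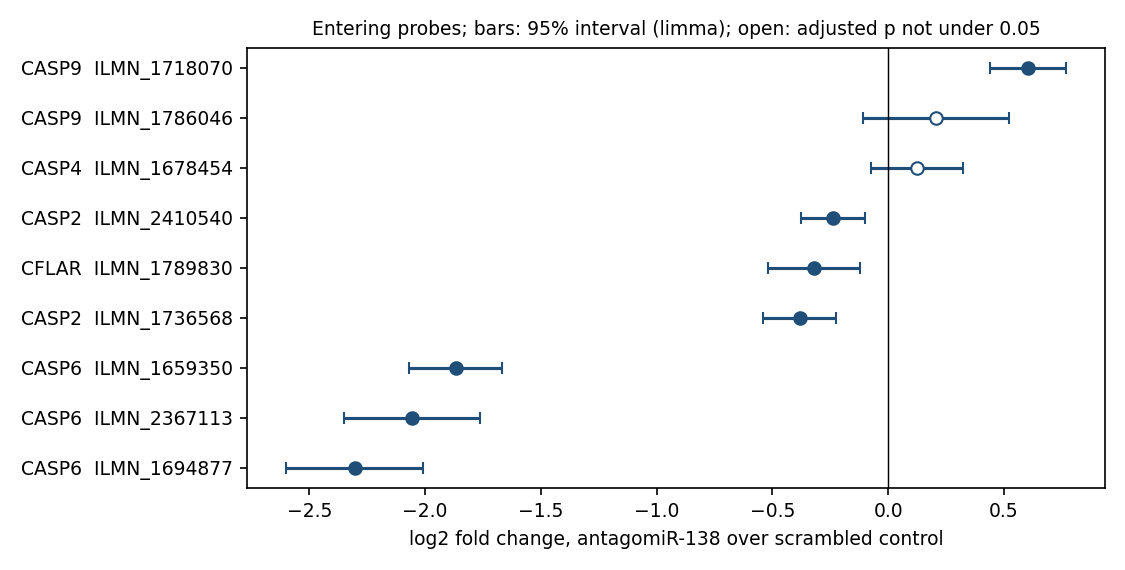
Log2 fold change (x axis, antagomiR-138 over scrambled control) of the 9 caspase family probes that entered the comparison, with 95% intervals from limma and open points where the adjusted p was not under 0.05. The CASP6 probes ILMN_1694877 and ILMN_2367113 lie at −2.30 and −2.06. The dim CASP6 probe ILMN_1659350, at −1.87, entered through the control arrays and is shown as a description. The 6 probes of the other genes lie between −0.38 and 0.60.

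The genes around the caspases were read from 6 lists of 95 genes, the further caspases among them, of which 70 genes could be tested. Of these, 27 were higher, 24 lower and 19 did not pass, 72.9% called against 60.1% of all tested genes, with a median log2 fold change of −0.02. Among 12 tested genes of death receptor signalling, which acts upstream of CASP8 and CASP10, 4 were higher and 3 lower, beside 30.9% and 29.1% of all tested genes, with a median of −0.03 (−0.08 without scrambled control replicate 1 or antagomiR-138 replicate 1, −0.06 without antagomiR-138 replicate 3, −0.01 without scrambled control replicate 2). The TRAIL receptor TNFRSF10B was up by 1.00 in log2 units (SE 0.0675, limma, adjusted p = 3.17e-05) and the decoy receptor TNFRSF10D by 0.86. The adaptor TRADD fell by 1.07 (0.101, adjusted p = 0.000135) and RNF31, the catalytic subunit of the linear ubiquitin ligase, by 0.42. For FADD, the adaptor that joins CASP8 and CFLAR to the receptors, the log2 difference was −0.10 (adjusted p = 0.155). It did not pass and was named after its value was seen.

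The list of mitochondrial release, apoptosome and PIDDosome genes, which act on CASP9 and CASP2, held 12 tested genes, of which 7 were higher and 2 lower (median 0.32), where 30.9% of all tested genes were higher and 29.1% lower. Over the other settings, thresholds included, 3 to 8 were higher and 1 to 2 lower, and the median was 0.24 to 0.39. BAK1, which opens the outer mitochondrial membrane, rose by 1.17 in log2 units (SE 0.153, limma, adjusted p = 0.000587), and CYCS, the cytochrome c of the apoptosome, rose by 1.15 (0.126, adjusted p = 0.000248). APAF1, which forms the apoptosome with CASP9 and was named after its value was seen, rose by 0.28 (0.0613, adjusted p = 0.00600). HTRA2, a mitochondrial protease that blocks inhibitors of apoptosis, fell by 0.70, though its other probe had −0.30 and did not pass (adjusted p = 0.200). CRADD, the adaptor between PIDD1 and CASP2, fell by 0.25 (adjusted p = 0.0286), a call that was lost in 7 of 18 other settings.

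Of 12 tested inhibitors of caspases and regulators with death effector or caspase recruitment domains, 6 were higher and 2 lower (median 0.40), again beside 30.9% and 29.1% of all tested genes. Over the other settings, thresholds included, 2 to 6 were higher and 1 to 3 lower, and the median was 0.27 to 0.45. DEDD2, a death effector domain protein, rose by 0.74 on the log2 scale and the ubiquitin ligase BIRC2 (cIAP1) by 0.63. The mitotic family member BIRC5 (survivin) fell by 0.90 (SE 0.0575, limma, adjusted p = 2.58e-05) and NOL3, a recruitment domain protein, by 0.32. XIAP, the direct inhibitor of CASP9, was named after its value was seen and measured 0.40 with a wide error (SE 0.214, adjusted p = 0.144).

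Around the inflammatory caspases, 13 of 23 inflammasome and pyroptosis genes were tested, with 7 higher, 4 lower and a median of 0.17, beside 30.9% higher and 29.1% lower over all tested genes. The median was 0.31 without scrambled control replicate 1, 0.07 with no detection filter and 0.32 with a stricter one, and 4 genes were higher with median scaling. IL1B, whose precursor CASP1 cleaves, rose by 2.78 in log2 units (SE 0.0956, limma, adjusted p = 3.32e-06), and GBP1, a guanylate-binding protein that coats bacteria, by 1.30. The cytosolic DNA sensor AIM2 fell by 1.54 (0.0611, adjusted p = 5.20e-06) and the adaptor PYCARD (ASC), which links sensors to CASP1, by 1.31 (0.121, adjusted p = 0.000119). GSDMD, the pore protein that CASP1 and CASP4 release, fell by 0.33 (0.0599, adjusted p = 0.00293) and was named after its value was seen.

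The caspase substrates were the list with the most falls. Of 21 tested genes, 13 were lower, where 29.1% of all tested genes were, 3 were higher (1 with median scaling) and 5 did not pass, with a median log2 fold change of −0.37 against 0.02 over all tested genes. The actin-severing protein GSN (gelsolin) fell by 1.16 in log2 units (SE 0.0804, limma, adjusted p = 3.53e-05) and the kinase PAK2 by 1.07 (0.0671, adjusted p = 2.46e-05). The lamins, of which LMNA is cut by CASP6, were named after their values were seen, as were DFFA, DFFB and PARP1. LMNB1 fell by 0.91, LMNA by 0.64 and LMNB2 by 0.64. DFFA and DFFB, the inhibitor and nuclease of apoptotic DNA cutting, fell by 0.50 and 0.63. The keratin KRT18 rose by 0.50 (0.159, adjusted p = 0.0312), was detected on 2 of 3 control arrays and lost its call in 4 of 17 other settings, and the scramblase XKR8 rose by 0.30. For PARP1, a widely used marker substrate, the log2 difference was −0.07 (adjusted p = 0.340).

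**Figure D4:**
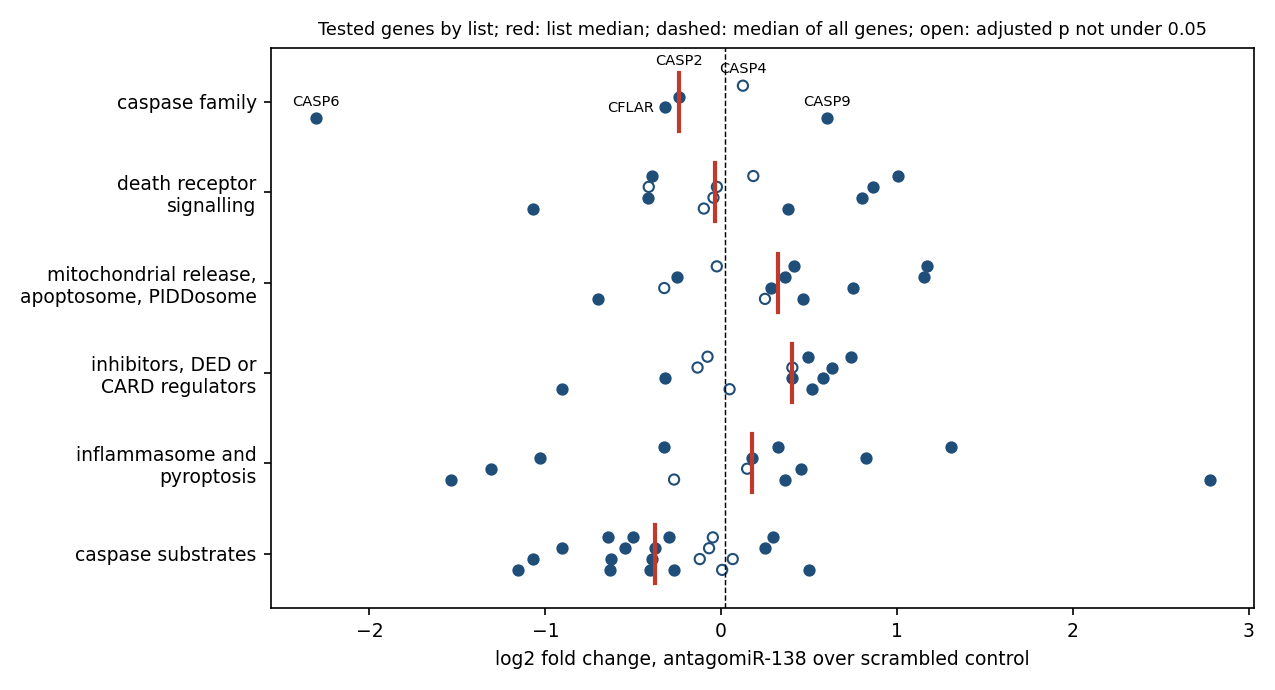
Log2 fold change (x axis, antagomiR-138 over scrambled control) of each tested gene of the caspase family and 5 lists around it, with filled points for adjusted p under 0.05, red bars at each list's median and a dashed line at the median of all genes, 0.02. CASP6 at −2.30 lies below every gene of the 5 lists, and the substrate median is −0.37.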

How the data were processed

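The samples were grouped from their labels, and the members and lists were chosen with earlier results of these data known. The authors deposited linear, background-subtracted probe intensities without normalization between arrays, each with its detection p-value. A further deposited table of intensities, normalized between arrays by a method not given in the sources used here, served as an alternative. GenomeStudio 1.9.0 is named in the submitters' processing notes, and BeadStudio and Partek in the methods. The methods name an Illumina HumanWG array, and the platform annotation used is that of another Illumina design, so genes were matched by probe identifier. Of 47322 probes, 30113 had 1 gene symbol there, which gave the 20046 named genes. Listed genes without such a probe were not analysed here.

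Intensities were processed with neqc in limma 3.58.1 (R 4.3.3), which fits the background from the detection p-values, quantile-normalizes and takes log2 with an offset of 16. A probe entered when its detection p was under 0.05 on 3 or more of the 6 arrays (20051 probes). Each gene was read from its entering probe of highest mean signal. Genes, and separately all entering probes, were tested with lmFit and eBayes, two-sided, without covariates, and p-values were adjusted by the Benjamini-Hochberg method over everything tested, with a threshold of 0.05. Probes of 1 gene were compared with diffSplice. The scripts were tested on simulated data. The named genes were all members, the 2 largest rises and falls of each list among called genes whose groups did not overlap, the measured further caspases, and the 3 genes nearest to the member with the largest change. Genes outside this rule are marked as named after their values were seen. Alternatives covered background correction, normalization, the detection filter, the mean of a gene's probes, variance models, the methods' t-test, a replicate block, leaving out each sample and other thresholds. Precision was limited by the number of arrays (median within-group SD 0.10 on the log2 scale). No slide term could be fitted, as no source used here gives the slides. Figures were drawn with matplotlib 3.10.9.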

Additional observations from a re-analysis of the deposited data

Results flagged for a closer look

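Of the probes left out of the comparison for low detection, 2 CASP8 probes were detected in antagomiR-138 arrays and in no scrambled control array. ILMN_2377733 was detected on 2 of 3 antagomiR-138 arrays (lowest detection p 0.0104) and had a log2 fold change of 0.53 without the detection filter, which passed when each gene was 1 probe (limma, adjusted p = 0.0394) and not when all probes were fitted together (adjusted p = 0.0600). ILMN_1673757 was detected on 1 of 3 antagomiR-138 arrays (detection p 0.0234). Only this direction was searched for, among the member probes, and the share of all left-out probes with this pattern was not computed.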

How the results depend on the processing

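The log2 fold changes of CASP6 (−2.43 to −2.01), CASP9 (0.40 to 0.64) and CFLAR (−0.36 to −0.25) kept their direction and their call in all 18 other settings, and CASP4 (0.05 to 0.17) passed in none. CASP2 lost its call when arrays were scaled to a common median (−0.25, adjusted p = 0.122; its probe ILMN_2410540 −0.25, 0.148) and kept it in the other 17 settings. In the fit over all probes, the CFLAR probe lost its call with median scaling (−0.34, adjusted p = 0.0661), without scrambled control replicate 2 (−0.29, 0.0531) and without scrambled control replicate 3 (−0.31, 0.0503), and ranged from −0.36 to −0.25 when 1 sample was left out. The dim CASP9 probe ILMN_1786046 ranged from 0.11 to 0.34 when 1 sample was left out, and passed without antagomiR-138 replicate 1 (0.34, adjusted p = 0.0345). Probe differences passed with an offset of 50 and with no background correction: 0.64 and 0.65 for CASP6 ILMN_1659350, −0.50 and −0.50 for CASP6 ILMN_1694877, 0.42 and 0.40 for CASP9 ILMN_1718070, and −0.42 and −0.40 for CASP9 ILMN_1786046. The cause of these changes was not tested.

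With no detection filter 2 of the 8 members were called higher, CASP9 and CASP8, and CASP6, CASP2 and CFLAR were called lower. In that setting 32.5% of 20046 genes were called in either direction. With at least 1.5-fold asked, 1 member was called lower, and over all genes 1297 were higher and 1576 lower. Among the values of the lists and their genes, 610 stayed the same and 44 counts or medians moved. A gene stayed the same when it kept its call, and a count when it was within 1.5-fold of the one reported. A median did when it moved by no more than the pooled within-group SD of the list's median across arrays. CRADD, KRT18 and XKR8 lost their calls in 7, 4 and 1 settings. No called value changed sign. Differences between probes that did not pass changed sign for CASP6 ILMN_1659350 (−0.13 in the authors' normalized table, 0.31 as reported), CASP6 ILMN_2367113 (−0.14 with an offset of 50, −0.15 with no background correction, −0.13 to 0.17 when 1 sample was left out, 0.03 as reported) and CASP2 ILMN_2410540 (−0.057 with no detection filter, 0.14 as reported). The median of all genes was −0.02 with median scaling and −0.01 with cyclic loess, against 0.02. Signal over background limited CASP1, CASP8 and CASP10, which could not be tested. Samples with the same replicate number did not deviate together (correlations of 0.0017, 0.0155 and 0.0526 across genes), so the numbers were not taken as pairs. A replicate block left the calls of all 5 tested members as they were, with 1 higher and 3 lower (CASP6 adjusted p = 0.000443), and 3355 genes higher and 3231 lower over all genes.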
